A study of Mus musculus with 8 samples.

Results

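The Zic genes encode zinc finger transcription factors whose DNA-binding fingers resemble those of the GLI factors that carry the hedgehog signal. Of the 43629 genes in the deposited table, 4 members of the family were taken by their symbols: Zic1, Zic2, Zic4 and Zic5. In vertebrates Zic genes lie in pairs that are transcribed away from each other, and in the embryo they mark the dorsal neural tube, the medial wall and septum of the forebrain, Cajal-Retzius cells born at its borders, and the meninges. Loss of Zic2 function in people and mice is a known cause of holoprosencephaly, a failure of the forebrain midline that is also caused by reduced SHH signalling. Their levels were compared here between control forebrain and forebrain with Sufu, a gene of the hedgehog pathway, deleted by Cre.

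All samples were mRNA libraries of dorsal forebrain from male mice of embryonic age E12.5, whose strain was mixed with C57BL/6J. In the Sufu-cKO group (Mut_295, Mut_317, Mut_337 and Mut_340) embryos had 1 Emx1-cre allele and floxed Sufu on both chromosomes. Controls (Cont_294, Cont_345, Cont_365 and Cont_370) were Sufu-fl/fl or Sufu-fl/+, and the labels do not say which sample was which, so every sample of both groups carried at least 1 floxed allele. Emx1-cre acts in dorsal telencephalic progenitors and their descendants, and cells without that history in the dissected tissue keep Sufu. SUFU is an intracellular inhibitor that holds the GLI factors in check.

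Library totals ran from 27514357 to 34878838 counts. Sufu had 105 to 125 CPM (counts relative to the library total, scaled with TMM factors) in the controls and 35.9 to 44.8 CPM in the Sufu-cKO samples. The hedgehog feedback genes Gli1, Ptch1 and Hhip were called higher in Sufu-cKO by edgeR, with log2 fold changes of 4.21, 3.39 and 6.34. The 4 dorsal telencephalic markers Emx1, Emx2, Pax6 and Lhx2 were present. Their sums were 1037 to 1155 CPM in control samples and 822 to 966 CPM in Sufu-cKO samples. The markers did not move alike. By edgeR, Pax6 was called higher in Sufu-cKO (log2 fold change 0.54), while Emx2 (-0.72) and Lhx2 (-0.51) were called lower. The 6 meningeal markers were present too, at 840 to 905 CPM in control samples. In Mut_337 they stood apart at 1496 CPM, while the other Sufu-cKO samples had 679 to 718 CPM. In bulk tissue, fewer cells of a type and less RNA per cell cannot be told apart.

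On the GRCm38 build, Zic1 (ENSMUSG00000032368) lies on chromosome 9 from 91358058 to 91365810 on the minus strand. Zic4 (ENSMUSG00000036972) lies beside it from 91362413 to 91389348 on the plus strand. Their annotated spans overlap by 3398 bases, of which only 60 are exonic in both genes (1.05% of the Zic1 exon bases and 0.581% of those of Zic4, GENCODE M21). Zic5 (ENSMUSG00000041703, minus strand, 122456795 to 122465677) and Zic2 (ENSMUSG00000061524, plus strand, 122475435 to 122479852) form the other pair, on chromosome 14, with 9757 bases between them and no shared exon. The start sites that RefSeq gives for Zic1 and Zic4 are 3204 bases apart and point away from each other.

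The promoter windows of Zic1 and Zic4 are shown because these neighbours moved together from sample to sample, as described below. Each runs 5′ to 3′ on the gene's own strand from 250 bases before to 50 bases after the RefSeq start site (GRCm38.p6). Capitals mark CCAAT, the letters of the CCAAT box, searched on both strands.
Zic1, chr9:91365719-91366018, minus strand: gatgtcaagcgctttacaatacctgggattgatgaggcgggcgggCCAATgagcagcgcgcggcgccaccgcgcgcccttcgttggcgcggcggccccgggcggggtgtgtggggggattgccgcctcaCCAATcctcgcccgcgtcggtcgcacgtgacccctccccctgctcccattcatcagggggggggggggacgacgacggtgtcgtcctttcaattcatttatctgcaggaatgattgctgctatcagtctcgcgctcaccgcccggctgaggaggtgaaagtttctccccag
Zic4, chr9:91368722-91369021, plus strand: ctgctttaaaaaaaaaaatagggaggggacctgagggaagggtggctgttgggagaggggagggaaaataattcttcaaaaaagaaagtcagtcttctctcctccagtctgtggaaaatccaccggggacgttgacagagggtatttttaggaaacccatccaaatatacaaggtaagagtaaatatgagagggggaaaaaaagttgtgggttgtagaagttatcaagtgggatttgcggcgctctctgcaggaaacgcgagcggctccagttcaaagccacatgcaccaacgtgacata
The Zic1 window was rich in G and C (65.3%) and held CCAAT at 2 places, both on the gene's strand. The Zic4 window had 46.0% G and C and held no CCAAT. Over the 32851 promoter windows of the table the median was 52.7% G and C, and 37.4% held CCAAT on either strand. The GLI site GACCACCCA and the shorter element GGGTGGTC, which ZIC proteins bind and which lies within the reverse complement of that GLI site, were in neither window, nor was TATAAA. Over all windows these were held by 0.253%, 0.807% and 13.6%. The Zic5 window (62.7% G and C) held none of the 4 motifs either.

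None of the 4 Zic genes passed the test between genotypes. Zic2 and Zic5 had means that differed by less than their SD between genotypes. Zic1 and Zic4 had higher means in Sufu-cKO, with an SD within each genotype that was larger than the difference. edgeR called 0 of 4 members at an adjusted p under 0.05, against 11.0% of the 15382 genes tested (5.34% higher and 5.64% lower). At an unadjusted p under 0.05 edgeR also gave 0 of 4, and DESeq2 and limma-voom each called 0. All 4 members passed the filter on low counts. For 0 of 4 members did the ranges of the genotypes stay apart, against 16.2% of tested genes.

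Zic1, which encodes the family's founding member, named for the cerebellum, had 218 CPM in Cont_294, 138 in Cont_345, 125 in Cont_365 and 174 in Cont_370. In the Sufu-cKO samples it had 234 CPM in Mut_295, 131 in Mut_317, 196 in Mut_337 and 211 in Mut_340. The groups overlapped along most of their range, with Mut_317 among the low controls and Cont_294 among the high Sufu-cKO samples. The means were 164 ± 41.7 and 193 ± 44.1 CPM (SD, n = 4 each), which gave a log2 fold change of 0.24 with an SE of 0.230 (adjusted p = 0.632 by edgeR). The 95% interval of this ratio ran from 0.812-fold to 1.71-fold.

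Zic4, the neighbour of Zic1 whose joint deletion with it has been linked to Dandy-Walker malformation of the cerebellum, varied most. It had 94.1 CPM in Cont_294, 38.4 in Cont_345, 37.1 in Cont_365 and 66.2 in Cont_370, against 89.7 in Mut_295, 41.8 in Mut_317, 90.1 in Mut_337 and 84.9 in Mut_340. The values left a gap between 41.8 and 66.2 CPM, with Cont_345, Cont_365 and Mut_317 below it and the other 5 samples above it. The means were 59.0 ± 27.0 and 76.6 ± 23.3 CPM (SD, n = 4 each), which gave a log2 fold change of 0.38 with an SE of 0.395 (adjusted p = 0.664 by edgeR). The 95% interval, 0.674-fold to 2.51-fold, includes no change. Without Cont_294 the log2 fold change was 0.70 and without Mut_317 it was 0.58, while it was 0.22 without Cont_345 and 0.20 without Cont_365. None of these was called.

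Zic2, the holoprosencephaly gene of the family, was the steadiest. Its control values were 51.4 (Cont_294), 44.2 (Cont_345), 47.1 (Cont_365) and 50.4 CPM (Cont_370), and its Sufu-cKO values were 52.7 (Mut_295), 43.3 (Mut_317), 49.2 (Mut_337) and 42.9 CPM (Mut_340). The ranges of the genotypes lay almost on top of each other. The means were 48.3 ± 3.27 and 47.1 ± 4.76 CPM (SD, n = 4 each), which gave a log2 fold change of -0.04 with an SE of 0.081 (adjusted p = 0.849 by edgeR). The 95% interval ran from 0.862-fold to 1.10-fold.

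Zic5, the partner of Zic2 at the chromosome 14 locus, had 35.1 CPM in Cont_294, 24.9 in Cont_345, 24.8 in Cont_365 and 30.0 in Cont_370. Its Sufu-cKO values were 29.5 (Mut_295), 26.6 (Mut_317), 29.4 (Mut_337) and 30.7 CPM (Mut_340), all within the control range. The means were 28.7 ± 4.91 and 29.0 ± 1.70 CPM (SD, n = 4 each), which gave a log2 fold change of 0.02 with an SE of 0.109 (adjusted p = 0.960 by edgeR). The 95% interval ran from 0.857-fold to 1.19-fold. The lowest count of any member in any sample was 683, where counting error alone is 3.83%, below the SD of Zic5 in either genotype (17.1% and 5.84% of its mean).

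**Figure D1:**
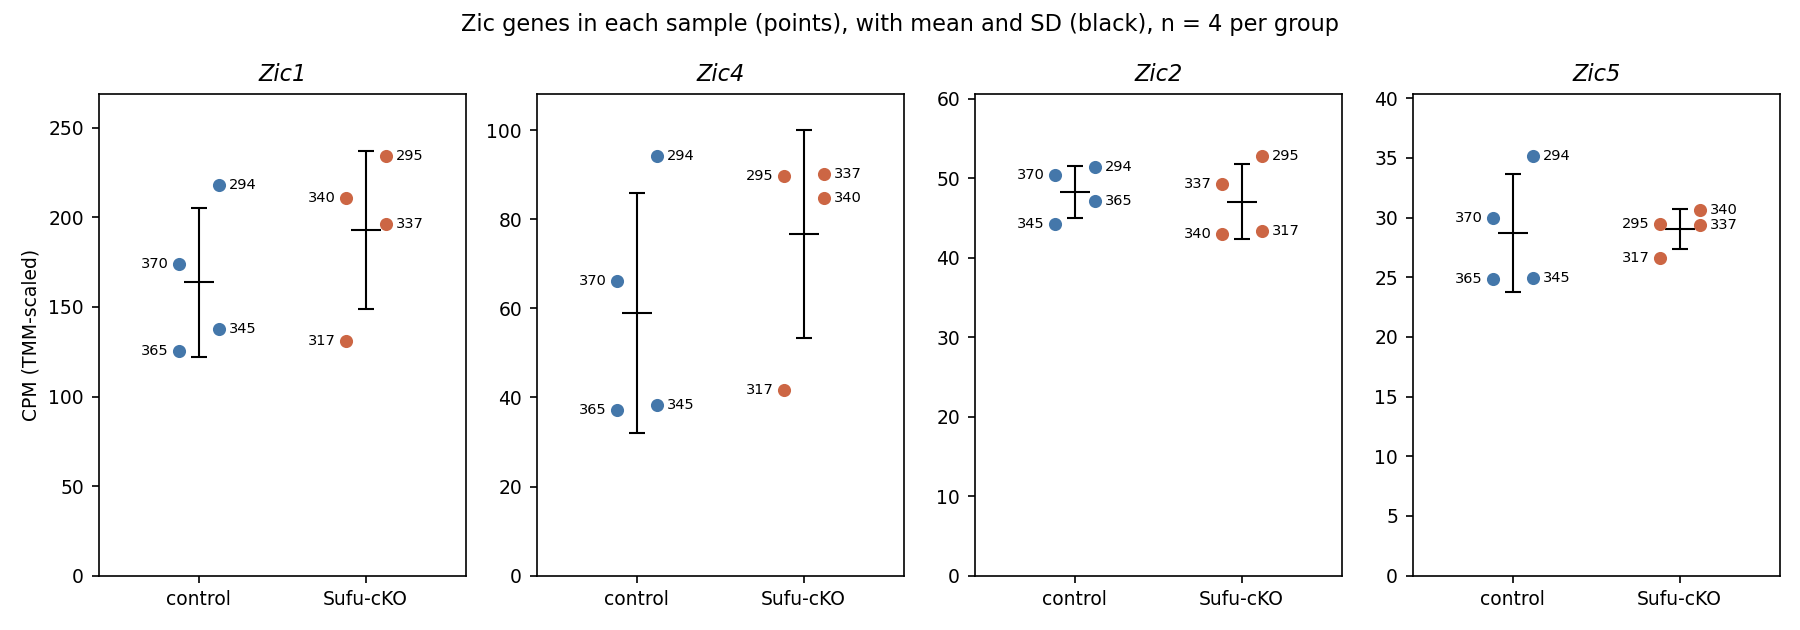
CPM of each Zic gene (y axis, starting at 0, a scale of its own per panel) in the 4 control and 4 Sufu-cKO samples, each point labelled with its sample number, with the mean and SD in black. Cont_345, Cont_365 and Mut_317 are lowest for Zic1 and Zic4 across both genotypes, while Zic2 stays between 42.9 and 52.7 CPM.

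**Figure D2:**
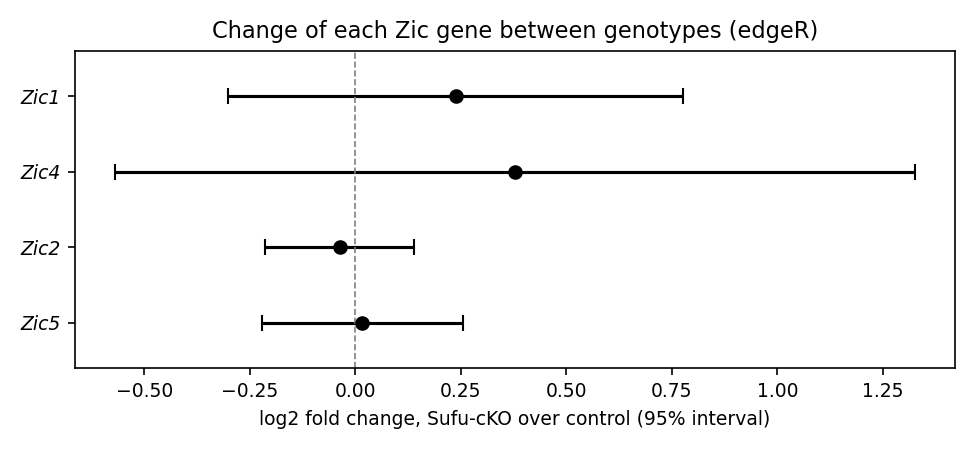
Log2 fold change of each Zic gene, Sufu-cKO over control (x axis), with its 95% interval from edgeR; the dashed line marks no change. All 4 intervals include 0, and those of Zic2 and Zic5 are narrow while that of Zic4 spans from -0.57 to 1.33.

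The authors' deposited table gives a fold change of 1.18 for Zic1, 1.30 for Zic4, 0.974 for Zic2 and 1.01 for Zic5. The false discovery rate there is 1 for each of the 4 genes.

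Whether the members changed unequally was tested within samples, from the log2 ratio of counts of 2 members. This ratio does not depend on how libraries are scaled. The exact permutation test over the 70 assignments of 8 samples to groups of 4 can give no p below 0.0286 (2-sided), and p-values were adjusted over the 6 pairs. The largest difference was for Zic2 over Zic4, with a mean log2 ratio of -0.18 ± 0.56 in control and -0.64 ± 0.47 in Sufu-cKO (SD, n = 4 each; exact permutation p = 0.229, adjusted p = 0.343). Zic4 over Zic5 had 0.94 ± 0.41 and 1.34 ± 0.46 (exact permutation p = 0.171, adjusted p = 0.343). The smallest was Zic2 over Zic5, with 0.76 ± 0.16 and 0.69 ± 0.15 (exact permutation p = 0.514, adjusted p = 0.514). No pair passed, and the other 3 pairs had adjusted p = 0.343 by the same exact permutation test.

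Levels of different genes are comparable only per length. Over all annotated exons of a gene, Zic1 was highest in control samples at 28.8 ± 7.33 CPM per kb, followed by Zic2 (16.8 ± 1.14), Zic5 (5.87 ± 1.004) and Zic4 (5.71 ± 2.61; SD, n = 4 each). In Sufu-cKO the same scale gave 33.9 ± 7.75 for Zic1, 16.3 ± 1.65 for Zic2, 7.41 ± 2.26 for Zic4 and 5.94 ± 0.347 for Zic5. The lowest Zic1 sample (22.0 CPM per kb) lay above the highest Zic2 sample (18.3), and the lowest Zic2 sample (14.9) above every sample of Zic4 and Zic5. Zic4 and Zic5 did not separate, since Zic4 was the higher of them in 2 of 4 control and 3 of 4 Sufu-cKO samples. The place of Zic4 depends on the length used. Its annotated exons sum to 10335 bases but its longest coding transcript has 3891, and over that length Zic4 had 15.2 CPM per kb in control, beside 19.8 for Zic2 and 6.02 for Zic5. On that scale the Zic4 samples ran from 9.54 to 24.2 CPM per kb, across the whole Zic2 range of 17.6 to 21.6 and above the highest Zic5 sample (7.37).

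The spread of Zic1 and Zic4 within a genotype was far beyond counting error. Within genotypes the SD of log2 CPM was 0.60 for Zic4 and 0.36 for Zic1, against 0.18 for Zic5, 0.12 for Zic2 and a median of 0.14 over all tested genes. Among the 500 tested genes nearest in mean level to each, 99.8% had a lower SD than Zic4 and 99.6% a lower SD than Zic1. The corresponding shares were 79.0% for Zic5 and 67.6% for Zic2. The highest control sample of Zic4 was 2.54 times the lowest, and the highest Sufu-cKO sample was 2.16 times the lowest.

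Zic1 and Zic4 varied together across the samples. Among 13627 genes whose mean reached 1 CPM, Zic4 was the gene whose log2 CPM was most like that of Zic1 over the 8 samples (Pearson r = 0.97, Spearman rho = 0.86), and Zic1 was the gene most like Zic4. The points of such a comparison share library and depth, and the samples fall on either side of the gap described for Zic4, so r is given as a measure of likeness with no test. With the genotype mean subtracted r was again 0.97, where Zic4 ranked 4 among the genes most like Zic1 and Zic1 ranked 2 among those most like Zic4. The Zic1 to Zic4 count ratio was not constant, however. It was 3.59 in Cont_345, 3.37 in Cont_365 and 3.14 in Mut_317, where Zic4 was low, and 2.18 to 2.63 in the other samples, so Zic4 varied over a wider range than its neighbour.

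Zic5 followed the chromosome 9 pair more closely than it followed its own neighbour. Its r was 0.88 with Zic4 and 0.84 with Zic1, but 0.51 with Zic2. Zic2 had 0.56 with both Zic1 and Zic4. Its highest sample was only 1.23 times its lowest, so each r of Zic2 rests on a small range, and differences in r were not tested. In Mut_340 the genes parted: Zic2 was at its lowest value of all 8 samples (42.9 CPM), while Zic5 was at the highest Sufu-cKO value (30.7 CPM).

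By the same measure over 8 samples, and leaving out the family itself, the genes most like Zic1 were Neil1, a DNA glycosylase of base excision repair (r = 0.95), Nfxl1 (0.95) and Ddx59 (0.94). Those most like Zic4 were Nfxl1 (0.97), Col25a1, a membrane-bound collagen (0.95), and C130060K24Rik (0.95). Zic2 was most like Plscr3 (0.96), Adssl1 (0.95) and Mpzl3 (0.95), and Zic5 most like Phyh (0.95), Trappc2 (0.93) and Cmc1 (0.93). None of these genes was called between genotypes by edgeR. With the genotype mean subtracted, Neil1 (0.97) stayed on the list for Zic1, Nfxl1 (0.96) and Col25a1 (0.96) for Zic4, and Adssl1 (0.99) and Plscr3 (0.97) for Zic2, while the added names were 2210015D19Rik (0.99) and Slc7a3 (0.97) for Zic1, Prox2 (0.98) for Zic2 and Cnpy1 (0.96) for Zic4. For Zic5 all 3 names differed, with D030055H07Rik (0.98), Ift20 (0.97) and Ubr3 (0.96). None of these was called either. Over the 8 samples as they are, 9 to 17 of the 13627 genes exceeded r = 0.9 with each member. With the genotype mean subtracted 32 to 47 did so, and each list names only its first 3. Whether unrelated genes would give as many was not tested, so the names carry no claim of a link. From lowest to highest sample, the named genes spanned from 1.11-fold (2210015D19Rik) to 28.1-fold (D030055H07Rik). Adssl1 and Cnpy1 had means of only 1.12 and 1.19 CPM.

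Noncoding genes next to Zic1 and Zic4 showed the same pattern at low levels. The long noncoding RNA Gm29478 begins 15.1 kb beyond Zic4 on the same strand. It had 64 counts in Cont_294, 17 in Cont_345, 22 in Cont_365 and 36 in Cont_370, and 52 in Mut_295, 20 in Mut_317, 62 in Mut_337 and 33 in Mut_340. Its 3 lowest samples by CPM were the 3 lowest of Zic4 (r = 0.92 with Zic4), and it was not called (log2 fold change 0.24 with an SE of 0.425, adjusted p = 0.812 by edgeR). RP23-340C13.9, an unverified transcript model within the Zic4 span on the opposite strand, had 1 to 6 counts in those 3 samples and 12 to 20 in the other 5. On the other side of the pair, the transcript models RP23-340C13.4 (4 to 26 counts, r = 0.76 with Zic4) and RP23-340C13.5 (2 to 31 counts, r = 0.90) were not called. Farther out, Plscr1, a phospholipid scramblase 860 kb away, had a lower likeness to Zic4 (r = 0.56), and was at 6.44 to 10.2 CPM with no call (edgeR, adjusted p = 0.760). Reads of genes on opposite strands cannot be assigned between them where the strand setting of the counting is not known.

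At the Zic2 and Zic5 locus, the noncoding transcript 2610035F20Rik lies between both genes, on the strand opposite to Zic2. It had 14.6 CPM in Cont_294, 7.77 in Cont_345, 6.76 in Cont_365 and 8.36 in Cont_370, and 10.6 in Mut_295, 7.43 in Mut_317, 9.23 in Mut_337 and 10.3 in Mut_340. Its pattern was closer to that of Zic5 (r = 0.92) than to that of Zic2 (r = 0.49). It was not called (log2 fold change 0.01 with an SE of 0.227, adjusted p = 0.993 by edgeR). Gm5089, 5.68 kb beyond Zic5, had 4 to 63 counts in control and 37 to 92 in Sufu-cKO and was not called (log2 fold change 1.20 with an SE of 0.640, adjusted p = 0.323 by edgeR). Clybl, Pcca and Ggact, the metabolic enzyme genes that flank the locus, were not called either, with log2 fold changes from -0.01 to 0.32. Pcca, which encodes a subunit of propionyl-CoA carboxylase, also varied along with Zic5 (r = 0.84) and Zic4 (r = 0.82), but within 39.0 to 49.7 CPM, so a high r was not limited to genes of the chromosome 9 pair.

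**Figure D3:**
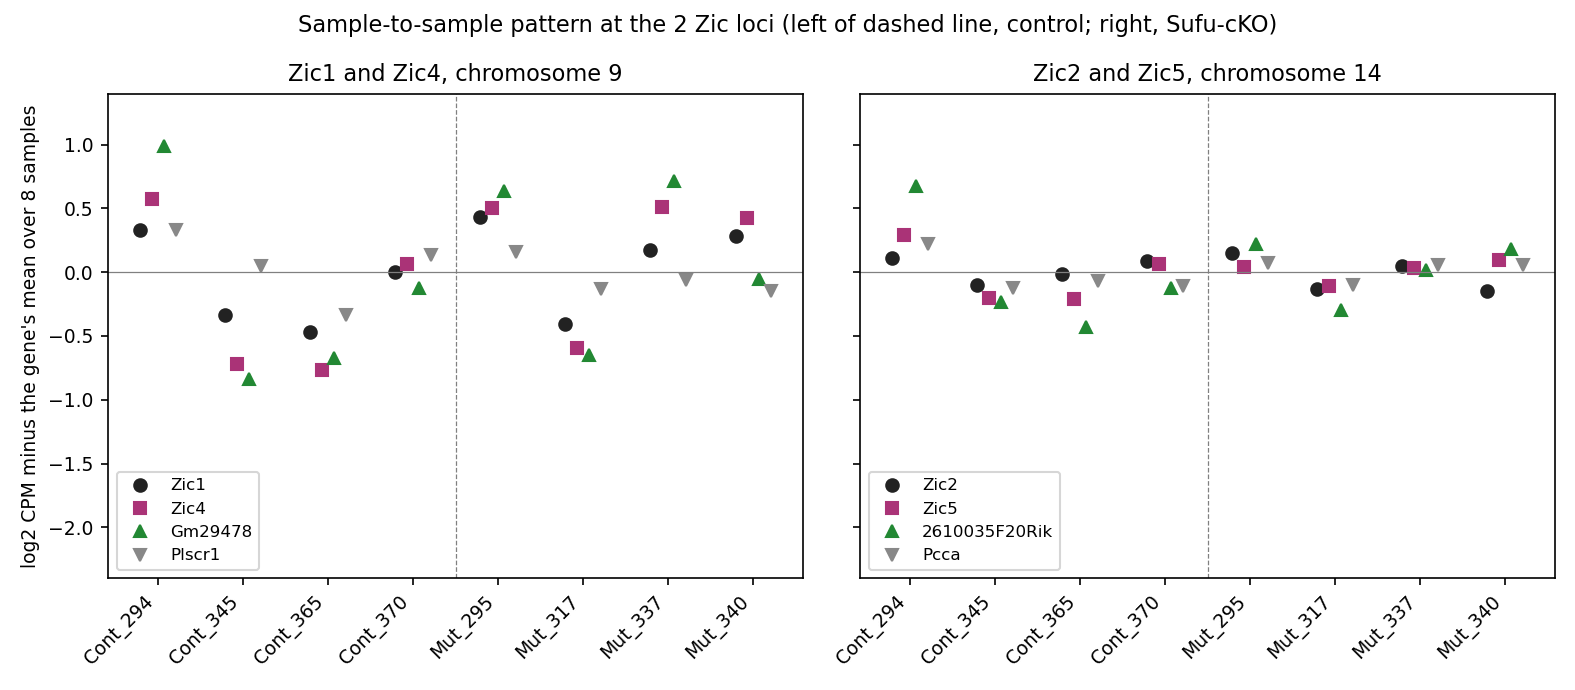
Log2 CPM of each gene minus its own mean over the 8 samples (y axis), for Zic1, Zic4, Gm29478 and Plscr1 on chromosome 9 (left) and for Zic2, Zic5, 2610035F20Rik and Pcca on chromosome 14 (right), 1 mark per gene and sample. Zic4 and Gm29478 are low together in Cont_345, Cont_365 and Mut_317, and Zic2, Zic5 and Pcca stay closer to 0 than Zic4 in these 3 samples.

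Several genes of the septum and rostral midline, regions that express Zic genes, moved with Zic4 from sample to sample. Of the 8 tested members of that list reported here, 4 had r above 0.7 with Zic4 (median 0.64), against 3.08% of all tested genes. The 4 were Six3, Fgf17, Etv1 and Isl1, named after their values were seen. With the genotype mean subtracted, 5 of 8 had r above 0.7 with Zic4 (median 0.80), against 4.3% of all tested genes. There 8 of 8 were positive. This was not particular to Zic4, since 5 of 8 also exceeded 0.7 there with Zic1 and with Zic5, and 3 of 8 with Zic2. Six3, a homeobox gene of the anterior forebrain, had 6.17 CPM in Cont_294, 1.06 in Cont_345, 2.09 in Cont_365 and 5.45 in Cont_370, and 7.18 in Mut_295, 1.44 in Mut_317, 6.15 in Mut_337 and 3.36 in Mut_340. Its 3 lowest samples were again Cont_345, Cont_365 and Mut_317 (r = 0.90). Fgf17, an FGF ligand of the rostral midline, had 19.9 CPM in Cont_294, 0.437 in Cont_345, 1.64 in Cont_365 and 3.64 in Cont_370 (r = 0.87). In Sufu-cKO it had 12.4 CPM in Mut_295, 3.10 in Mut_317, 11.5 in Mut_337 and 4.30 in Mut_340. Its values in Cont_370 and Mut_340 were near that of Mut_317, although Zic4 was above its gap in both. Etv1, a transcription factor whose transcription responds to FGF, ran from 6.76 CPM in Cont_365 to 31.0 CPM in Mut_340 (r = 0.87).

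None of these 4 genes was called between genotypes, and Isl1, a factor of ventral and septal neurons, had a log2 fold change of 2.07 with a wide error (SE 0.979, adjusted p = 0.281 by edgeR). Sp8, a zinc finger gene of the rostral telencephalon, had r = 0.10 with Zic4 over the 8 samples. As Sp8 was called lower in Sufu-cKO, this r holds part of that difference. Within controls Sp8 had 58.6 CPM in Cont_294, 44.2 in Cont_345, 35.1 in Cont_365 and 49.1 in Cont_370. Within Sufu-cKO it had 32.2 in Mut_295, 18.0 in Mut_317, 21.5 in Mut_337 and 28.9 in Mut_340. In each genotype it was thus lowest where Zic4 was low. The summed level of the reported members ran from 61.4 to 121 CPM in the controls and from 77.5 to 157 CPM in the Sufu-cKO samples, and none of them was at 0 in all samples. Fgf8 did not pass the filter on low counts. Ventral telencephalic markers (Dlx1, Dlx2, Gsx2 and Nkx2-1) also varied, with sums of 9.91 CPM in Cont_294, 2.88 in Cont_345, 21.8 in Cont_365 and 58.3 in Cont_370, and 127 in Mut_295, 17.7 in Mut_317, 63.1 in Mut_337 and 123 in Mut_340. Their part in the spread of Zic4 was not tested.

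**Figure D4:**
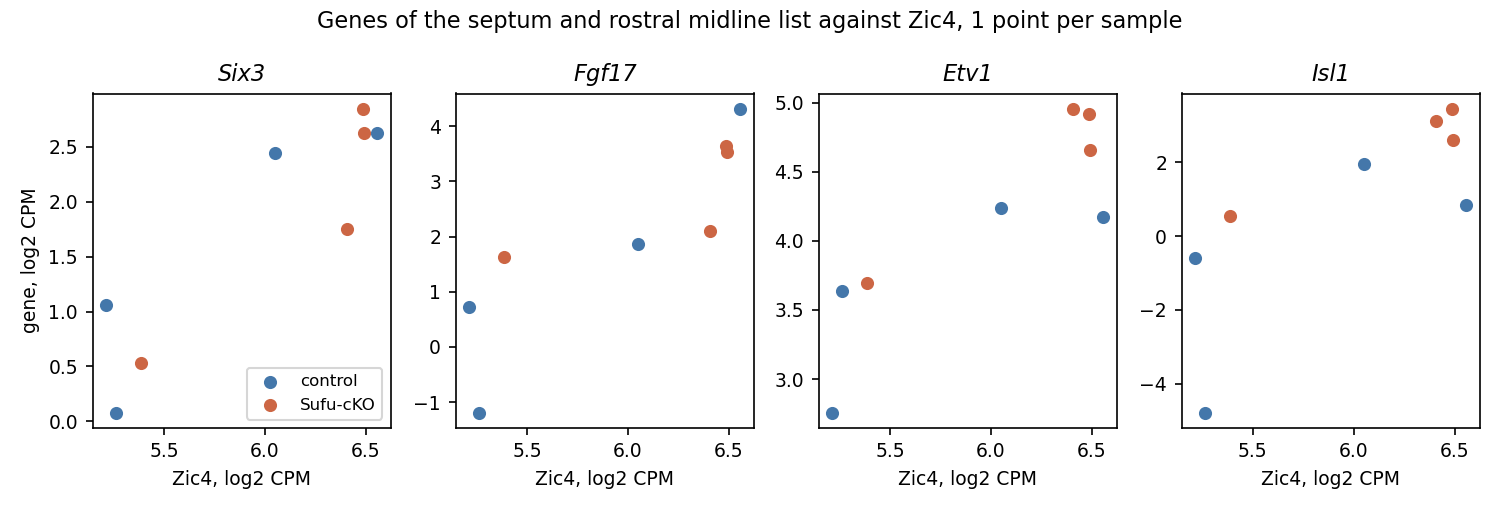
Log2 CPM of 4 genes of the septum and rostral midline list (y axes) against log2 CPM of Zic4 (x axis), 1 point per sample, coloured by genotype. Six3, Fgf17, Etv1 and Isl1 are low in the 3 samples with low Zic4; the lowest Isl1 point, Cont_345, is a single count.

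Of the other lists of cells that express Zic genes or lie beside them, that of Cajal-Retzius cells also held genes that varied with Zic4, and those of meninges, hem and choroid plexus did not reach that level with Zic4. Of 16 tested genes of meninges and mesenchyme, 0 had r above 0.7 with Zic1 or with Zic4 (medians -0.07 and 0.03). With the genotype mean subtracted, 0 did so either, and the medians were 0.07 and 0.22. There 12 of 16 were positive with Zic4, beside a median of 0.02 over all tested genes. Mut_337, whose meningeal sum was the highest, had Zic4 at 90.1 CPM. Mut_295, whose meningeal sum was the lowest at 679 CPM, had Zic4 at 89.7 CPM. Both samples were picked after their values were seen, and the part of meningeal tissue in the spread of Zic4 was not tested. Of 18 genes of the dorsal midline and cortical hem, 0 had r above 0.7 with any member. Their median r was -0.35 with Zic1, -0.25 with Zic4, -0.22 with Zic5 and 0.20 with Zic2. With the genotype mean subtracted, the medians in the same order were -0.25, -0.16, -0.23 and 0.17. Of 10 choroid plexus genes, 0 had r above 0.7 with Zic1, Zic4 or Zic5 and 1 did with Zic2. Their median r was -0.39 with Zic1, -0.41 with Zic4, -0.18 with Zic5 and 0.38 with Zic2, where 10 of 10 were positive. As 7 of these 10 fell between genotypes, these values hold part of that difference. With the genotype mean subtracted, the medians in the same order were -0.19, -0.20, -0.21 and 0.43. There 9 of 10 were positive with Zic2. For Cajal-Retzius cell genes 4 of 12 had r above 0.7 with Zic4 (median 0.43, and 0.44 with the genotype mean subtracted). The list was not uniform. Among controls Lhx1 had 8.95 CPM in Cont_294 against 7.73 in Cont_345 and 7.71 in Cont_365, where Zic4 was low. In Cont_370, where Zic4 was above its gap, Lhx1 had 7.79 CPM, near these low values. Reln went the other way, with 128 CPM in Cont_294 and 137 in Cont_370 against 158 in Cont_345 and 146 in Cont_365. Whether the content of Cajal-Retzius cells has a part in the spread of Zic4 was not tested. The 4 defining Cajal-Retzius markers (Reln, Trp73, Lhx1 and Lhx5) had sums of 183 to 212 CPM in the controls and of 144 to 171 CPM in the Sufu-cKO samples. Most of each sum was Reln, the only one of the 4 that was called. The ranges of Trp73 stayed apart too (41.0 to 50.1 and 32.5 to 40.7 CPM), while those of Lhx1 (7.71 to 8.95 and 7.43 to 8.82) and Lhx5 overlapped. The summed level of all 12 genes of the list overlapped between genotypes, at 419 to 458 CPM in the controls and 392 to 440 CPM in the Sufu-cKO samples.

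Lists of genes from the regions and pathways around the Zic genes were read as counts and medians from the same edgeR fit, beside 5.34% called higher, 5.64% called lower and a median log2 fold change of 0.01 over all tested genes. The shares called among the genes of meninges and of Cajal-Retzius cells were near the 11.0% over all tested genes. Among 18 tested genes of the dorsal midline and hem, the source of the BMP and WNT ligands that induce dorsal fates, 4 fell and 0 rose (median -0.13). Msx3, a dorsal homeobox gene, fell from 1.80 ± 0.293 to 0.440 ± 0.178 CPM (SD, n = 4 each; edgeR adjusted p = 0.000894). The WNT ligand genes Wnt5a (log2 fold change -0.62) and Wnt7b (-0.58) and the BMP ligand gene Bmp7 (-0.49) also fell. Of 11 genes that respond to BMP signalling, Id2 rose (0.97), Id4 (-0.55), Smad7 (-0.52) and Smad6 (-0.88) fell, and 7 did not pass (median -0.18). Smad6 and Smad7 encode inhibitory SMADs that BMP signalling induces.

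Of 10 tested choroid plexus genes 7 fell (median -1.28), among them Enpp2, which encodes autotaxin, from 34.1 ± 4.81 to 20.3 ± 1.96 CPM (SD, n = 4 each; edgeR adjusted p = 0.000933). Calml4 (-1.08), Folr1 (-1.23) and Htr2c (-1.77) were the others named by rule. Of 16 meningeal and mesenchymal genes Tbx18, a T-box gene of mesenchyme and pericytes, fell (-0.54), and Aldh1a2, the retinoic acid synthesis enzyme of the meninges, rose (1.16), with 14 not passing (median -0.20). Of 12 Cajal-Retzius cell genes Ndnf rose (1.90) and Reln fell (-0.40), and 10 did not pass (median 0.03).

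Of 10 tested genes of the thalamic eminence and diencephalon 3 rose and 2 fell (median 0.45). Dbx1, a homeobox gene of intermediate progenitor domains that the septal list also holds, rose from 0.903 ± 0.431 to 34.3 ± 9.85 CPM (SD, n = 4 each; edgeR adjusted p = 2.12e-05). Olig3 (2.83) and Tcf7l2 (0.92) rose and Lef1 fell (-1.10). On the septal list Sp8 fell (-0.89) and Dbx1 rose, and 6 of the 8 reported did not pass (median 0.30). Among the zinc finger factors closest to the ZIC proteins, Gli1 (4.21) and Gli2 (0.65) rose and 3 of 5 tested did not pass (median 0.12).

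Of 7 tested genes that have been tied to ZIC factors in other tissues, Mdfic, a relative of the ZIC-binding protein gene Mdfi, fell from 24.1 ± 2.35 to 16.1 ± 3.75 CPM (SD, n = 4 each; edgeR adjusted p = 0.0258), and 6 did not pass (median -0.35), a share of calls near that over all tested genes. Ephb1, the guidance receptor gene that acts downstream of Zic2 in retinal axons, had 62.9 ± 5.76 CPM in controls and 67.5 ± 3.96 CPM in Sufu-cKO (SD, n = 4 each; log2 fold change 0.10 with an SE of 0.074, adjusted p = 0.471 by edgeR).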

How the data were processed

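RNA from 8 samples, 4 per genotype, was measured by sequencing of stranded mRNA libraries, per the labels' protocols. STAR 2.4.2a and GRCm38 are named in the submitters' processing notes, and for the counting program, its strand setting and its annotation the entry is not given in the sources used here. Gene counts were tested as the authors deposited them, without normalisation. They also deposited a normalised signal, each count divided by 1 size factor per sample, used here only for that check. The ratio of Sufu-cKO to control (fold change) and the p-value with its false discovery rate were read from the authors' deposited table. Columns matching no sample numbered 0.

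Groups came from the sample titles. The labels do not say whether samples of a group are separate embryos or litters, so the p-values cover only sample-to-sample spread, part of which may be technical. Every pair of samples within a group differed by more than sampling noise (chi-square over degrees of freedom at least 8.90), so each was counted once. Counts were filtered with filterByExpr (minimum count 10, minimum total 15), scaled with TMM factors and fitted across all genes with edgeR 4.0.16 in R 4.3.3 (quasi-likelihood F-test, robust, Benjamini-Hochberg over 15382 genes, call at adjusted p under 0.05). SE and 95% intervals of fold changes come from the F statistic. The biological coefficient of variation was 12.8%. For likeness, log2 CPM had a prior count of 2. A pseudocount of 0.5 was added for log2 ratios of counts. Exon lengths are from GENCODE M21, whose positions of the members equalled the deposited ones, and promoters from RefSeq, which matched 3 of the 4 members. The fit was tested on simulated data.

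Named genes were the members, up to 4 called genes of each list (made up to 2 with the most abundant), the 3 genes most like each member, and the nearest tested genes on each side of each pair. Members, lists and rules were chosen with earlier results of these data known. The rule by symbol finds 5 rows, of which 1 is not reported here, nor are some genes of the lists, whose counts, medians and sums are given without them. Alternatives were 3 other scalings, 2 other filters, DESeq2 1.42.0, limma-voom (limma 3.58.1), edgeR without robust estimation, each sample left out, and a pseudocount of 5. The longest coding transcript as length was added after the data were seen.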

Additional observations from a re-analysis of the deposited data

Results flagged for a closer look

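In a group of 4 samples, a sample was picked out where its gap to the nearest other sample was a larger share of the group's range than Dixon's 95% critical value. This picked out 9 of the 80 groups of values examined, and chance picks out about 1 in 20. The groups are not independent, since the meningeal markers are also in the list of meninges and mesenchyme and Zic4 is part of its ratios. The number picked out is therefore not read as an excess. Zic4 in Mut_317 (41.8 CPM) lay far below the other Sufu-cKO samples, and so did the log2 ratio of Zic4 over Zic5 there (0.65). Pcca, which flanks Zic2, was lowest among Sufu-cKO samples in the same library (39.7 CPM) and highest among controls in Cont_294 (49.7 CPM). Fgf17 was highest among controls in Cont_294 (19.9 CPM). In Mut_337 the summed meningeal markers (1496 CPM), the whole list of meninges and mesenchyme (1752 CPM) and the diencephalic markers (86.2 CPM) stood above the other Sufu-cKO samples. The dorsal telencephalic markers were highest among controls in Cont_345 (1155 CPM).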

How the results depend on the processing

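No Zic gene was called under any of the 16 alternatives. Zic1 and Zic4 kept a positive log2 fold change in all of them, and with 1 sample left out they ranged from 0.12 to 0.41 and from 0.20 to 0.70. Zic2 ranged from -0.10 to 0.00048 with 1 sample left out, positive only without Mut_317 (0.00048). Zic5 ranged from -0.056 to 0.13 and was negative without Cont_345 (-0.046), Cont_365 (-0.056) or Mut_340 (-0.016), with upper-quartile factors (-0.0036) and with total counts only (-0.0022), so its values lie on both sides of 0. The number of genes called was 1689, ranged from 1079 (without Cont_345) to 1836 with 1 sample left out, and was 2135 with DESeq2. The 6 differences between members kept their sign in every alternative, and with 1 sample left out they were computed as values with no test. They ranged from 0.17 to 0.42 for Zic1 over Zic2, -0.30 to -0.09 for Zic1 over Zic4, 0.11 to 0.34 for Zic1 over Zic5, -0.69 to -0.29 for Zic2 over Zic4, -0.14 to -0.00045 for Zic2 over Zic5, and 0.27 to 0.62 for Zic4 over Zic5. With the longest coding transcript as length the control level of Zic2 was 19.8 and that of Zic4 15.2 CPM per kb. No paired analysis was possible because the labels do not name litters, and the sample numbers, which the genotypes do not share, do not show any pairing.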
